A study of Mus musculus with 9 samples.

Results

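The genes that make, sense, move and export cholesterol were followed in the RNA of mouse back skin. A total of 28 genes were chosen by name for their place in this pathway, with earlier results of these data known. All 28 were found among the 29205 genes of the deposited table. Of these, 18 encode enzymes, with 8 in the mevalonate segment that ends at squalene and 10 in the sterol segment that follows it. The other 10 genes encode 5 proteins of the SREBP control system, 3 proteins of uptake and intracellular transport, and 2 efflux pumps.

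The skin came from male BALB/c mice aged 6 to 8 weeks, kept 7 days before the start, whose backs were shaved and treated with depilatory cream in every group. The control group (treatment labelled "blank") received no imiquimod. The IMQ group received 62.5 mg of a 5% imiquimod cream on the back each day for 5 days. The LYS group received the same cream and Longkui Yinxiao soup, a herbal decoction that the study gave into the stomach. The study sequenced its high-dose group, and it gave the decoction over more days than the cream. No group received the decoction without the cream, so every LYS value is that of imiquimod-treated skin. Skin was collected on day 13 in all 3 groups, with 3 libraries per group and 9 libraries in all. Imiquimod activates Toll-like receptor 7 and produces a psoriasis-like dermatitis, which is a model of the disease and not the disease itself. The study speaks of the samples of a group as biological replicates, but no source used here ties each library to a mouse of its own, so p-values measure only the spread between these libraries.

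Cells build cholesterol from acetyl-CoA through mevalonate, isoprenoids and squalene, which is then closed into a ring and trimmed to the final sterol. The transcription factor SREBP-2 (sterol regulatory element-binding protein, Srebf2) drives the genes of this route when sterols in the endoplasmic reticulum are low, after SCAP has carried it to the Golgi for cleavage, while the INSIG proteins hold SCAP back when sterols are plentiful. Oxysterols activate the liver X receptors, which induce the efflux pumps ABCA1 and ABCG1 and the ubiquitin ligase MYLIP. In skin, keratinocytes make much of their own cholesterol, and cholesterol is one of the lipids of the permeability barrier in the cornified layer.

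Library totals ranged from 14658645 to 19609878 counts, and all 28 genes passed the filter on low counts in each comparison. Levels are given as CPM, the reads of a gene scaled to a fixed library size, after scaling by the trimmed mean of M values (TMM), whose factors were 1.10 to 1.20 for control, 0.79 to 0.92 for IMQ and 0.98 to 1.10 for LYS libraries. Scaling by library totals alone moved the median log2 fold change of all genes from -0.06 to -0.51 in IMQ against control, from 0.04 to 0.29 in LYS against IMQ and from -0.01 to -0.15 in LYS against control, so values under that scaling are to be read against those medians. The labelled tissue was checked on 6 epidermal keratinocyte genes, none of which was at 0 in any group. The chi-square per degree of freedom between the counts of a pair of libraries was 34.2 to 100.04 among LYS libraries, highest between LYS 1 and LYS 3, compared with 16.9 to 56.6 among IMQ and 20.6 to 49.8 among control libraries.

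In the IMQ group, 24 of the 28 genes were upregulated compared with the control group and 0 were downregulated, where a call needed an edgeR adjusted p below 0.05 and a log2 fold change beyond 0.58 in either direction. Over all 15976 genes tested, 24.1% were upregulated and 26.9% downregulated. All 18 enzymes were upregulated, with a median log2 fold change of 1.52 and a range from 0.79 (Acat2) to 2.54 (Sqle), where the median of all genes was -0.06. Of the other 10 genes, 6 were upregulated (Srebf2, Scap, Stard4, Npc1, Abcg1 and Mylip) and the median of the 10 was 1.09. Srebf1, Insig1, Insig2 and Abca1 did not pass the thresholds. Because whole skin was sequenced, fewer cells of a type and less RNA per cell cannot be told apart in any of these values.

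In LYS against IMQ, 0 of the 28 genes and 0% of all 15460 genes passed the edgeR thresholds, the smallest adjusted p among the 28 being 0.0591. At an unadjusted p under 0.05, 2978 of all genes were higher and 2457 lower (19.3% and 15.9%), compared with 1 of the 28 genes higher (Abca1) and 23 lower, among them all 18 enzymes. The enzymes had a median log2 fold change of -0.86, from -0.58 (Idi1) to -1.30 (Hsd17b7), where the median of all genes was 0.04. The median of the other 10 genes was -0.37. DESeq2 called 19 of the 28 genes lower and Abca1 higher, among 9.49% of all genes called lower and 13.3% called higher. A fit to all 9 libraries with edgeR also called 19 lower and Abca1 higher, against 8.62% and 9.93% of all genes.

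In LYS against control, 11 of the 28 genes were upregulated and Insig1 was downregulated, where 15.1% of all 16003 genes tested were upregulated and 12.9% downregulated. Of the 18 enzymes, 6 were upregulated (Mvd, Idi1, Fdps, Fdft1, Sqle and Ebp), and the median of the 18 was 0.64 against -0.01 for all genes. Of the other 10 genes, Scap, Stard4, Npc1, Abcg1 and Mylip were upregulated, and the median of the 10 was 0.87. These calls changed with single libraries. Without Control 1, 7 of the 28 genes were called, 6 up and Insig1 down, and Mvd, Fdft1, Sqle, Ebp and Scap were lost, while the calls over all genes also fell, to 9.20% up and 6.60% down. Without LYS 3, 17 were called, 16 up and Insig1 down, with Mvk, Lss, Cyp51, Hsd17b7 and Sc5d added, and the calls over all genes rose to 16.7% up and 14.2% down. Without Control 2 the calls of Mvd, Idi1, Fdft1 and Sqle were lost (9.93% of all genes up), without Control 3 that of Ebp (11.9% up), and without LYS 2 that of Fdft1 (10.8% up). Without LYS 1, Abca1 was added as higher and Insig2 as lower (15.5% up and 13.4% down). The comparisons of LYS with IMQ and of IMQ with control share the IMQ libraries, and those with the control group share the control libraries, so the 3 sets of values are not independent of one another.

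**Figure D1:**
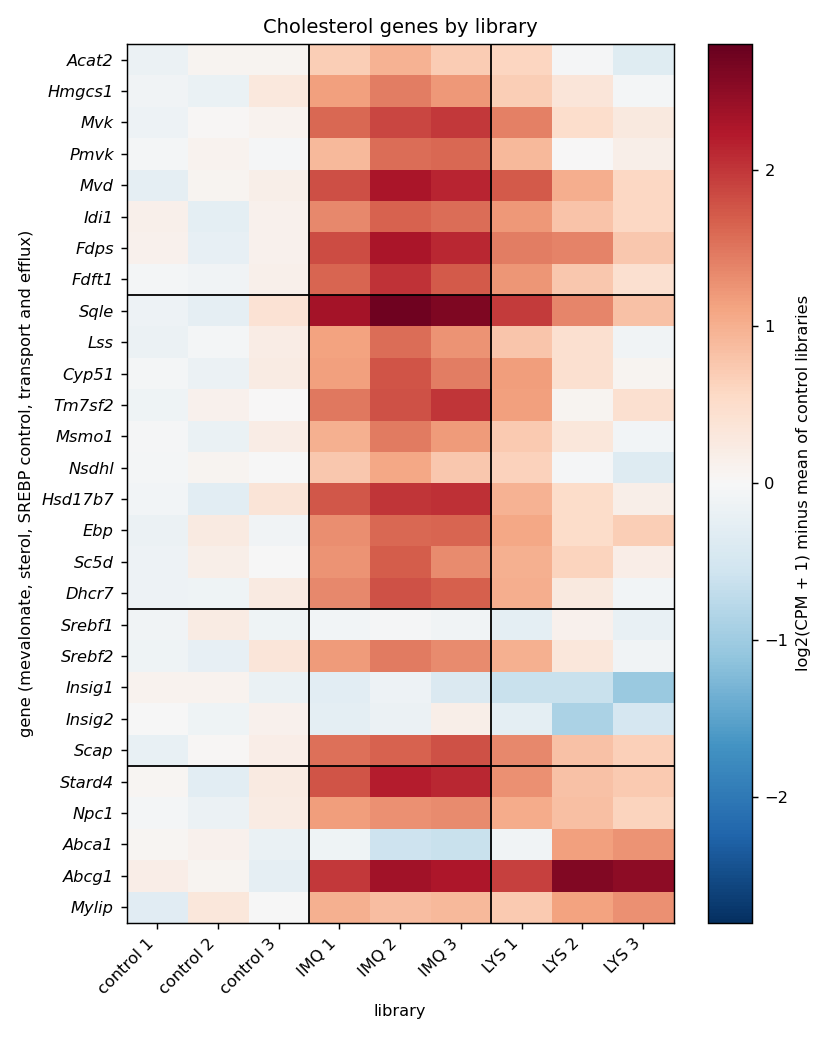
Level of each of the 28 cholesterol genes in each library, as log2(CPM + 1) minus the mean of the 3 control libraries (colour scale), with genes in rows by role and the control, IMQ and LYS libraries in columns. The 18 enzyme rows are high in all 3 IMQ libraries and lower in LYS 2 and LYS 3, while the rows of Srebf1, Insig1, Insig2 and Abca1 are not high in the IMQ libraries, and Abca1 is high in LYS 2 and LYS 3.

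The mevalonate segment begins with the thiolase ACAT2, which condenses acetyl-CoA, and the synthase HMGCS1, which adds the next acetyl unit. Hmgcs1 (ENSMUSG00000093930, chr13:119690379-119708260 on the plus strand) measured 166, 156 and 220.0 CPM in the control libraries, 394, 487 and 414 CPM in the IMQ libraries and 289, 227 and 172 CPM in the LYS libraries. Every IMQ library lay above every other library, and LYS 3 lay within the control range. The log2 fold change was 1.25 (SE 0.17, edgeR adjusted p = 5.24e-04) in IMQ against control, and -0.85 (SE 0.20, edgeR adjusted p = 0.0598) in LYS against IMQ. Acat2 (ENSMUSG00000023832) measured 58.4, 69.1 and 69.4 CPM in the control libraries, 106, 129 and 107 CPM in the IMQ libraries and 99.7, 63.4 and 51.1 CPM in the LYS libraries, and its log2 fold change of 0.79 in IMQ against control was the smallest among the enzymes. That call was lost when libraries were scaled by their totals alone, under which the log2 fold change was 0.33 against a median of -0.51 for all genes. Of the stretches of 50 bases in the Acat2 transcripts, 39.1% also occur in Acat3 or Tcp1, so its counts are uncertain.

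The promoter of Hmgcs1 is shown because it alone held TCACNCCAC on either strand, among the 22 of 28 genes with a RefSeq promoter window. A window ran from 250 bases before to 50 after the start (GRCm38.p6). The letters TCACNCCAC are a form of the sterol regulatory element, which SREBP proteins bind, and other forms were not searched. In Hmgcs1 the bases before the start lie at chr13:119690101-119690350 on the plus strand, outside the exons of the gene. The element spans bases -137 to -129 from the start. The promoter of Mvd, chosen for display after the values were seen because Mvd rose most among the mevalonate enzymes with little sequence shared with other genes, lies at chr8:122443423-122443672 on the minus strand. Both are printed 5′ to 3′ on the strand of the gene, with capitals for the sterol regulatory element and for the CCAAT box, read as CCAAT or as ATTGG on the opposite strand.
Hmgcs1: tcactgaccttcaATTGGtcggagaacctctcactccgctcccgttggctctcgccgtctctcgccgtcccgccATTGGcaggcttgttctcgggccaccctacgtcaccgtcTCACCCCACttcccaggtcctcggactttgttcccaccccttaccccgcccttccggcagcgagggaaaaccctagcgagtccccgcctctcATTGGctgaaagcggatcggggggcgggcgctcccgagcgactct
Mvd: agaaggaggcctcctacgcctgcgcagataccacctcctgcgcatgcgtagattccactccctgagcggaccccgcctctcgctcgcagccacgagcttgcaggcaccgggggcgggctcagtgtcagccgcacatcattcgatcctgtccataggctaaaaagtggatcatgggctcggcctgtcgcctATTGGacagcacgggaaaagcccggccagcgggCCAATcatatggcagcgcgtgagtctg
The element TCACNCCAC occurred in 1.24% of all 32817 windows. CCAAT, the binding sequence of the factor NF-Y, occurred on either strand in 19 of the 22 genes and in 14 of the 15 enzymes with a window, compared with 37.4% of all windows. The GC box GGGCGG occurred in 21 of the 22 genes and in 35.6% of all windows. A gene may have several windows, so the 22 genes had 30 windows, of which 20 held CCAAT and 25 held GGGCGG. Matches of letters are descriptions of the windows and not sites of binding.

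Mevalonate is phosphorylated by MVK and PMVK and decarboxylated by MVD to the first isoprenoid. Mvd (ENSMUSG00000006517, chr8:122433601-122443422, minus strand) measured 25.4, 32.3 and 34.4 CPM in the control libraries, 108, 151 and 138 CPM in the IMQ libraries and 103, 62.6 and 45.9 CPM in the LYS libraries. The 3 groups did not overlap for Mvd, with the LYS libraries between the others. Mvd had a log2 fold change of 2.10 (SE 0.17, edgeR adjusted p = 4.40e-05) in IMQ against control, -0.86 (SE 0.28, edgeR adjusted p = 0.0870) in LYS against IMQ and 1.20 (SE 0.30, edgeR adjusted p = 0.0194) in LYS against control. Mvk measured 42.4, 48.2 and 50.3 CPM in the control libraries, 145, 173 and 186 CPM in the IMQ libraries and 126, 66.7 and 57.0 CPM in the LYS libraries, and Pmvk measured 34.8, 38.7 and 35.3 CPM in the control libraries, 69.3, 109.5 and 113 CPM in the IMQ libraries and 68.4, 36.5 and 41.0 CPM in the LYS libraries. For Mvk the LYS libraries again lay between the other groups, while for Pmvk LYS 2 and LYS 3 lay within 3 CPM of a control library and LYS 1 lay just below IMQ 1. In LYS against control neither gene passed the thresholds, with log2 fold changes of 0.83 (SE 0.29, edgeR adjusted p = 0.0639) for Mvk and 0.43 (SE 0.24, edgeR adjusted p = 0.206) for Pmvk.

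The isomerase IDI1, the farnesyl diphosphate synthase FDPS and the squalene synthase FDFT1 complete the segment. Fdps measured 3.09, 2.22 and 3.07 CPM in the control libraries, 12.5, 17.4 and 15.2 CPM in the IMQ libraries and 9.21, 8.93 and 5.39 CPM in the LYS libraries. It rose by 2.41 (SE 0.22, edgeR adjusted p = 7.21e-05) on the log2 scale in IMQ against control, the largest change in the segment, at the lowest level of the 28 genes. The 3 groups did not overlap for Fdps, but 26.2% of its stretches of 50 bases occur in other genes, among them an overlapping gene model, so its level is uncertain. Fdft1 measured 62.5, 60.8 and 71.6 CPM in the control libraries, 202, 266 and 214 CPM in the IMQ libraries and 153, 110.1 and 89.0 CPM in the LYS libraries, and Idi1 measured 67.0, 49.7 and 65.6 CPM in the control libraries, 154, 192 and 179.8 CPM in the IMQ libraries and 141, 106 and 89.9 CPM in the LYS libraries. Both genes kept the LYS libraries between the control and IMQ ranges, and both were upregulated in LYS against control, Fdft1 by 0.86 (SE 0.21, edgeR adjusted p = 0.0196) and Idi1 by 0.89 (SE 0.21, edgeR adjusted p = 0.0159). Fdft1 overlaps 774 exon bases of Ctsb on the opposite strand and the library kit is not stated to mark strand. Ctsb had 20528 to 34859 counts in the control libraries, 9828 to 14905 in the IMQ libraries and 14819 to 29116 in the LYS libraries, and the part of its reads in the Fdft1 values was not tested. Idi1 shares 25.3% of its stretches of 50 bases with other genes, and its values carry the same uncertainty.

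Squalene epoxidase, encoded by Sqle, starts the sterol segment and is one of its rate-limiting steps. Sqle (ENSMUSG00000022351, chr15:59315077-59331192, plus strand) measured 77.1, 71.1 and 112 CPM in the control libraries, 432, 569 and 526 CPM in the IMQ libraries and 333, 221 and 152 CPM in the LYS libraries. Its groups did not overlap, and all LYS libraries lay between the control and IMQ ranges. Sqle rose by 2.54 (SE 0.21, edgeR adjusted p = 5.12e-05) on the log2 scale in IMQ against control, the largest change among the 28 genes. In LYS it was -1.05 against IMQ (SE 0.28, edgeR adjusted p = 0.0642, DESeq2 adjusted p = 0.00419, and 0.00419 to 0.220 over all alternative fits) and 1.45 (SE 0.31, edgeR adjusted p = 0.0126) against control.

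HSD17B7, a ketosteroid reductase of the sterol segment, had the largest difference of the 28 genes between LYS and IMQ in the downward direction. Hsd17b7 (ENSMUSG00000026675, chr1:169949535-169969241, minus strand) measured 51.7, 44.1 and 70.3 CPM in the control libraries, 185, 221 and 228 CPM in the IMQ libraries and 108, 77.8 and 60.9 CPM in the LYS libraries. LYS 3 lay within the control range and LYS 2 and LYS 1 above it, and the highest LYS library was below the lowest IMQ library. The log2 fold change was 1.92 (SE 0.19, edgeR adjusted p = 1.08e-04) in IMQ against control, -1.30 (SE 0.21, edgeR adjusted p = 0.0591) in LYS against IMQ, and 0.58 (SE 0.25, edgeR adjusted p = 0.121) in LYS against control. DESeq2 gave -1.32 in LYS against IMQ with an adjusted p of 1.27e-05, where the adjusted p over all alternative fits of edgeR and DESeq2 reached 0.220.

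Lanosterol synthase (LSS) closes squalene epoxide into the first sterol, and CYP51 and the reductase TM7SF2 act on the ring that it forms. Cyp51 measured 145, 133 and 176 CPM in the control libraries, 334, 511 and 405 CPM in the IMQ libraries and 337, 206 and 157 CPM in the LYS libraries. LYS 1 lay just above IMQ 1, which made Cyp51 the only enzyme whose LYS and IMQ ranges overlapped. Lss measured 55.0, 59.3 and 71.6 CPM in the control libraries, 136, 185 and 149 CPM in the IMQ libraries and 106, 84.3 and 57.0 CPM in the LYS libraries, and Tm7sf2 measured 12.8, 15.2 and 14.1 CPM in the control libraries, 40.8, 50.6 and 59.0 CPM in the IMQ libraries and 32.1, 14.9 and 19.3 CPM in the LYS libraries. For both genes at least 1 LYS library fell within the control range. Tm7sf2 had the second largest log2 difference among the enzymes in LYS against IMQ, -1.12 (SE 0.28, edgeR adjusted p = 0.0612), and 9.87% of its stretches of 50 bases occur in Vps51, which lies on the same strand and overlaps it.

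The remaining sterol enzymes act on the methyl groups and double bonds of the sterol ring. MSMO1 and NSDHL remove the methyl groups at carbon 4 together with HSD17B7, EBP shifts a double bond, and SC5D and DHCR7 complete the 7-dehydrocholesterol route. Dhcr7 measured 63.6, 64.4 and 83.3 CPM in the control libraries, 178, 242 and 225 CPM in the IMQ libraries and 143, 84.7 and 66.0 CPM in the LYS libraries, with log2 fold changes of 1.60 (SE 0.17, edgeR adjusted p = 1.36e-04) in IMQ against control and -1.08 (SE 0.28, edgeR adjusted p = 0.0627) in LYS against IMQ. Ebp measured 36.0, 48.1 and 37.4 CPM in the control libraries, 101, 124 and 126 CPM in the IMQ libraries and 85.6, 57.9 and 65.1 CPM in the LYS libraries, and it was the only one of Msmo1, Nsdhl, Ebp, Sc5d and Dhcr7 upregulated in LYS against control, by 0.79 (SE 0.19, edgeR adjusted p = 0.0191). In Ebp all LYS libraries lay above all control libraries, whereas in Dhcr7 LYS 3 lay within the control range. Group means of the other members were 161 ± 23.4 CPM, 377 ± 61.1 CPM and 206 ± 57.7 CPM (SD, n = 3) in the control, IMQ and LYS groups for Msmo1. Sc5d had means of 50.5 ± 5.45 CPM, 138 ± 24.2 CPM and 79.1 ± 22.1 CPM in the same order. Nsdhl had means of 53.7 ± 2.52 CPM, 99.3 ± 13.9 CPM and 59.3 ± 22.2 CPM, and in LYS 3 it was below every control library. The increase of Nsdhl in IMQ, 0.88 (SE 0.12, edgeR adjusted p = 5.45e-04), no longer passed the fold threshold under library totals alone (0.43 against a median of -0.51 for all genes).

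**Figure D2:**
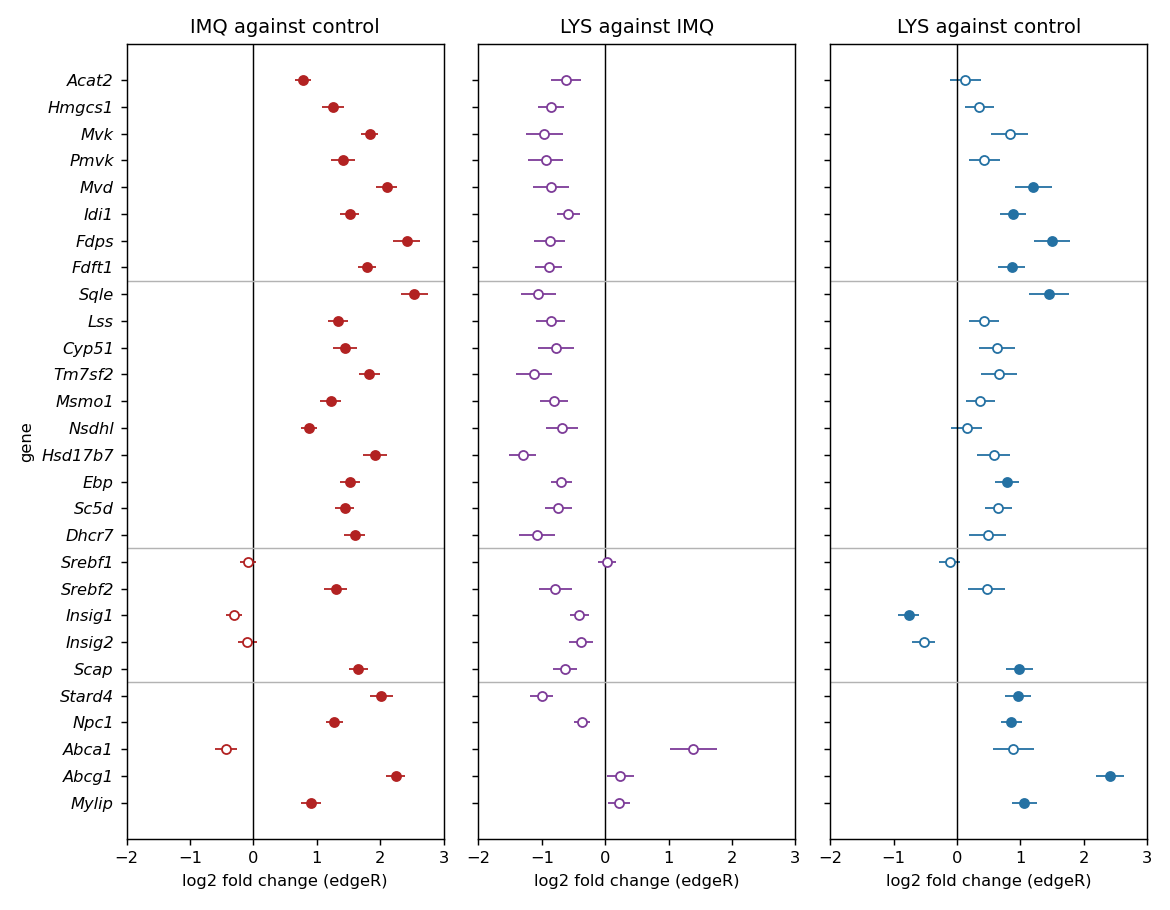
Log2 fold change (horizontal axis, edgeR) of each of the 28 genes (vertical axis) in IMQ against control, LYS against IMQ and LYS against control, with bars of 1 SE and filled points for genes past both thresholds. The 18 enzymes lie at 0.79 to 2.54 in the left panel and at -1.30 to -0.58 in the middle panel, where no point is filled, and Abca1 is at 1.39 in the middle panel.

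Transcripts of Srebf2 and Scap were upregulated in IMQ against control, whereas Srebf1, Insig1 and Insig2 did not pass the thresholds there. Srebf2 (ENSMUSG00000022463) measured 155, 143 and 210.5 CPM in the control libraries, 383, 458 and 417 CPM in the IMQ libraries and 333, 209 and 157 CPM in the LYS libraries. All IMQ libraries lay above all others, and LYS 2 and LYS 3 lay within the control range. The log2 fold change of Srebf2 was 1.30 (SE 0.18, edgeR adjusted p = 4.84e-04) in IMQ against control and -0.79 (SE 0.26, edgeR adjusted p = 0.0876) in LYS against IMQ. Scap (ENSMUSG00000032485) measured 50.8, 60.5 and 67.4 CPM in the control libraries, 173, 188 and 206 CPM in the IMQ libraries and 151, 106 and 94.1 CPM in the LYS libraries, and its 3 groups did not overlap. Scap rose by 1.66 (SE 0.14, edgeR adjusted p = 5.92e-05) on the log2 scale in IMQ against control and by 0.98 (SE 0.21, edgeR adjusted p = 0.0122) in LYS against control. Its stretches of 50 bases were shared with 1 other gene model at 9.96%, an overlapping model on the opposite strand that had at most 4 counts in any library.

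Srebf1, which encodes SREBP-1, the factor that mainly drives fatty acid synthesis, measured 178, 223 and 175 CPM in the control libraries, 182, 187 and 178 CPM in the IMQ libraries and 159, 207 and 166 CPM in the LYS libraries. The 3 groups overlapped, and the log2 fold change was -0.08 (SE 0.13, edgeR adjusted p = 0.596) in IMQ against control and 0.03 (SE 0.14, edgeR adjusted p = 0.913) in LYS against IMQ. Under library totals alone Srebf1 was at -0.53 in IMQ against control, close to the median of -0.51 for all genes.

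Insig1 is itself induced by SREBP proteins and returns as a brake on SCAP. Insig1 (ENSMUSG00000045294, chr5:28071363-28078662, plus strand) measured 132, 130.5 and 107 CPM in the control libraries, 99.0, 110.3 and 91.6 CPM in the IMQ libraries and 78.9, 79.1 and 59.0 CPM in the LYS libraries. All 3 LYS libraries lay below all IMQ and control libraries, while IMQ 2 lay above the lowest control library. Its log2 fold change was -0.30 (SE 0.13, edgeR adjusted p = 0.0676) in IMQ against control, -0.41 (SE 0.14, edgeR adjusted p = 0.0995) in LYS against IMQ and -0.76 (SE 0.17, edgeR adjusted p = 0.0130) in LYS against control. The call in LYS against control was made in all 12 other fits, and under library totals alone Insig1 was also called lower in IMQ against control, at -0.75 against a median of -0.51. Insig2, the second brake, measured 73.0, 68.0 and 80.3 CPM in the control libraries, 60.4, 65.2 and 83.0 CPM in the IMQ libraries and 61.0, 39.1 and 52.9 CPM in the LYS libraries. Its IMQ and control ranges overlapped, and it did not pass the thresholds in any of the comparisons (in LYS against control it was called lower under library totals alone, at a log2 fold change of -0.68, and without LYS 1, at -0.67), with log2 fold changes of -0.09 (SE 0.15, edgeR adjusted p = 0.596) in IMQ against control and -0.53 (SE 0.18, edgeR adjusted p = 0.0594) in LYS against control.

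**Figure D3:**
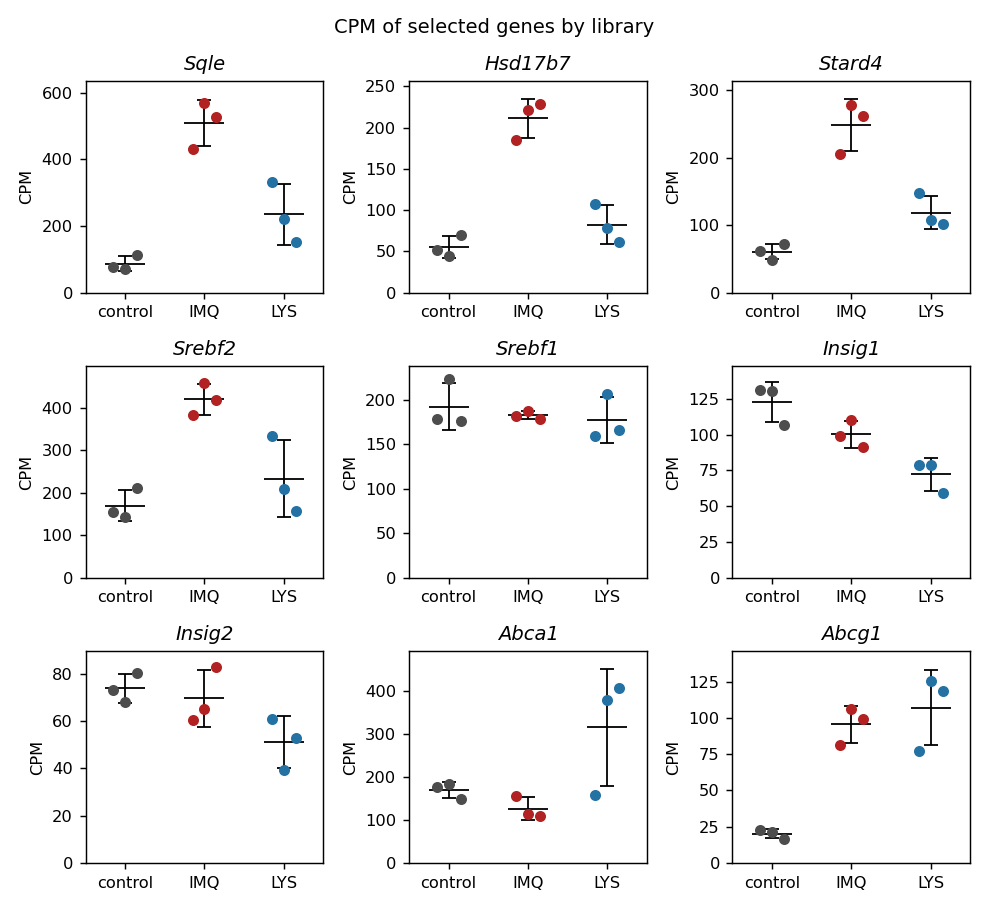
CPM (vertical axis, from 0) of 9 cholesterol genes in each library of the control, IMQ and LYS groups (horizontal axis), with points for libraries, a horizontal line for the group mean and bars of 1 SD, n = 3. Sqle, Hsd17b7, Stard4 and Srebf2 are highest in the 3 IMQ libraries, Insig1 is lowest in the 3 LYS libraries, and Abca1 reaches 379 and 407 CPM in LYS 2 and LYS 3.

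Among the transport genes, STARD4 carries cholesterol between membranes, NPC1 exports it from lysosomes, and MYLIP marks lipoprotein receptors for degradation. Stard4 (ENSMUSG00000024378) measured 62.4, 48.8 and 71.4 CPM in the control libraries, 205, 278 and 262 CPM in the IMQ libraries and 147, 108 and 101 CPM in the LYS libraries. The groups did not overlap, and the LYS libraries lay between the others. Stard4 had a log2 fold change of 2.02 (SE 0.18, edgeR adjusted p = 7.03e-05) in IMQ against control, -1.003 (SE 0.18, edgeR adjusted p = 0.0591) in LYS against IMQ and 0.97 (SE 0.21, edgeR adjusted p = 0.0117) in LYS against control. Npc1 measured 30.5, 28.4 and 37.2 CPM in the control libraries, 73.4, 78.9 and 81.3 CPM in the IMQ libraries and 66.1, 58.2 and 49.2 CPM in the LYS libraries, and its groups did not overlap either. Its log2 fold change was 1.27 (SE 0.13, edgeR adjusted p = 1.35e-04) in IMQ against control and -0.37 (SE 0.13, edgeR adjusted p = 0.0948) in LYS against IMQ. Mylip measured 33.3, 51.6 and 41.5 CPM in the control libraries, 83.3, 76.9 and 78.3 CPM in the IMQ libraries and 69.8, 92.3 and 102 CPM in the LYS libraries. For Mylip the LYS and IMQ ranges overlapped and both lay above the control range. Mylip had a log2 fold change of 0.91 (SE 0.16, edgeR adjusted p = 0.00189) in IMQ against control, 0.22 (SE 0.17, edgeR adjusted p = 0.385) in LYS against IMQ and 1.06 (SE 0.20, edgeR adjusted p = 0.00788) in LYS against control. Its increase in IMQ did not pass the fold threshold under library totals alone, at 0.47 against a median of -0.51 for all genes.

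Of the efflux genes, Abcg1 was called in IMQ against control and Abca1 was not. Abcg1 (ENSMUSG00000024030), which passes cholesterol to lipoprotein particles, measured 22.7, 21.1 and 16.6 CPM in the control libraries, 81.4, 106 and 99.5 CPM in the IMQ libraries and 77.4, 126 and 119 CPM in the LYS libraries. Every IMQ and LYS library was above every control library, and the IMQ and LYS ranges overlapped. Abcg1 rose by 2.24 (SE 0.16, edgeR adjusted p = 2.56e-05) on the log2 scale in IMQ against control and by 2.42 (SE 0.22, edgeR adjusted p = 5.57e-04) in LYS against control, and it was at 0.24 (SE 0.21, edgeR adjusted p = 0.454) in LYS against IMQ. Abca1 (ENSMUSG00000015243, chr4:53030787-53159895, minus strand), which loads cholesterol onto apolipoprotein A-I, measured 176, 184 and 149 CPM in the control libraries, 157, 113 and 109 CPM in the IMQ libraries and 158, 379 and 407 CPM in the LYS libraries. LYS 2 and LYS 3 were above every other library, whereas LYS 1 lay within the control range and just above IMQ 1. The log2 fold change of Abca1 was -0.43 (SE 0.17, edgeR adjusted p = 0.0552) in IMQ against control, 1.39 (SE 0.37, edgeR adjusted p = 0.0645) in LYS against IMQ and 0.89 (SE 0.33, edgeR adjusted p = 0.0717) in LYS against control.

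The calls for Abca1 changed with single libraries. Without IMQ 1 it was called lower in IMQ against control, at -0.60 (edgeR adjusted p = 0.00460, with 28.8% of all genes called lower), and it was called lower under library totals alone, at -0.86. Without LYS 1 it was called higher in LYS against IMQ, at 1.71 (SE 0.196, edgeR adjusted p = 0.00645), and in LYS against control, at 1.22 (edgeR adjusted p = 9.05e-04, with 15.5% of all genes called higher). Over all alternative fits of edgeR and DESeq2 the adjusted p of Abca1 ranged from 0.00460 to 0.262 in IMQ against control, from 0.00356 to 0.225 in LYS against IMQ and from 9.05e-04 to 0.199 in LYS against control. Macrophages express Abca1, and the summed level of 8 macrophage genes was 1472 to 2342 CPM in the control libraries, 953 to 1351 CPM in the IMQ libraries, and 1869, 3382 and 4166 CPM in LYS 1, LYS 2 and LYS 3. All 8 macrophage genes were higher in LYS than in IMQ at an unadjusted p under 0.05 (edgeR), compared with 19.3% of all genes. After adjustment 0 of them passed, and none was at 0 in any group. At the same unadjusted p, 5 of 6 endothelial, 4 of 6 fibroblast, 4 of 8 adipocyte and 4 of 8 skeletal muscle genes were also higher. Of 6 keratinocyte genes, 0 were higher and 3 lower. The summed fibroblast genes (9016, 14512 and 17415 CPM) and endothelial genes (293, 518 and 572 CPM) also rose from LYS 1 to LYS 3. So did the adipocyte genes (2363, 4017 and 6640 CPM) and the skeletal muscle genes (4180.4, 5332 and 8030.1 CPM). The part of these cell types in the values of Abca1 was not tested.

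Insig1 and Abca1, like Srebf1 and Insig2, were not upregulated with the enzymes in IMQ against control. The promoters of Insig1 and Abca1 are shown, a choice made after the values were seen. They lie at chr5:28071162-28071362 on the plus strand and at chr4:53159896-53160145 on the minus strand (GRCm38.p6, from RefSeq, before the annotated starts), are printed on the strand of the gene, and carry in capitals the CCAAT box and the E-box CACGTG, a binding sequence of basic helix-loop-helix factors.
Insig1: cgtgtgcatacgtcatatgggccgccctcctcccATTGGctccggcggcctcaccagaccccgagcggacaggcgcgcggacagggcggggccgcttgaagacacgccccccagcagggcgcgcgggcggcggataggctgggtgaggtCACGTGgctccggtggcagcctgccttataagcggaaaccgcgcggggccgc
Abca1: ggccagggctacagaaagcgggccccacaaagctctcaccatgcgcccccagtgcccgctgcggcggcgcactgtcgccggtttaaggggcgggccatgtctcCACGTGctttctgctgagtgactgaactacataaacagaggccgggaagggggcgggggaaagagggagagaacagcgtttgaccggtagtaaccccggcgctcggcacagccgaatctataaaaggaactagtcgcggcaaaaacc
CACGTG occurred in 6 of the 22 genes with a window (Hsd17b7, Sc5d, Dhcr7, Insig1, Scap and Abca1) and in 7.15% of all windows. Of the 7 genes outside the enzymes that had a window, 5 held CCAAT, and Abca1 and Scap did not. The direct repeat that liver X receptors bind was searched only in an exact form, AGGTCA repeated after 4 free bases. This form was found on either strand in 0 of the 22 genes and in 0.0152% of all windows. Variant repeats were not searched, so whether these windows hold them is not known. Fdps, Fdft1, Sqle, Stard4, Npc1 and Abcg1 had no window in the RefSeq table used here.

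The libraries of a group differed in the level of the enzymes. The summed level of the 18 enzymes was 1154, 1144 and 1404 CPM in the control libraries, 3134, 4151 and 3670 CPM in the IMQ libraries, and 2587, 1755 and 1381 CPM in the LYS libraries. LYS 1 was thus nearest to the IMQ group and LYS 3 lay within the control range. LYS 1 held the highest LYS value in 18 of 18 enzymes, LYS 3 the lowest in 15, and IMQ 1 held the lowest IMQ value in 17. The highest IMQ value was that of IMQ 2 in 13 enzymes and of IMQ 3 in 5. The control libraries were less uniform, with the lowest value in Control 1 for 10 enzymes and in Control 2 for 8, and the highest in Control 3 for 11, in Control 2 for 5 and in Control 1 for 2. The enzymes' ranges lay apart from each other in IMQ and control for 18 of 18 enzymes (34.1% of all genes lay apart in that direction), and in LYS and IMQ for 17 (22.1% of all genes). The summed level of the other 10 genes was 913 to 959 CPM in control, 1497 to 1660.5 CPM in IMQ and 1301 to 1402 CPM in LYS libraries. Without LYS 1, edgeR called 22 of the 28 genes in LYS against IMQ, which were all 18 enzymes, Srebf2, Scap and Stard4 lower and Abca1 higher, where 11.9% of all genes were called lower and 14.9% higher. Without IMQ 1, it called 5 genes lower (Pmvk, Fdft1, Hsd17b7, Ebp and Stard4), where 5.03% of all genes were called lower. In LYS against control, the enzymes' median was 0.32 without LYS 1, and 0.80 without LYS 3.

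Levels per length, which can be compared between genes, were read from the deposited FPKM. Insig1 ranked 1st of the 28 genes in the control group, at 45.5 ± 3.76 FPKM (SD, n = 3), next to Hmgcs1 at 45.3 ± 10.6 FPKM, and these values did not differ beyond their spread. In the IMQ group Hmgcs1 (78.3 ± 5.49 FPKM), Cyp51 (78.2 ± 11.6 FPKM) and Sqle (76.3 ± 4.84 FPKM) led, within their spread of one another, and Insig1 ranked 17th at 27.1 ± 2.85 FPKM. Sqle moved from rank 17 in the control group to rank 3 in the IMQ and LYS groups, and Mvd from rank 14 to rank 4 in both. Abca1 stood at rank 15, 25 and 9 in the control, IMQ and LYS groups, with 18.8 ± 1.29 FPKM, 10.3 ± 3.04 FPKM and 32.2 ± 15.1 FPKM. Fdps was last in all 3 groups, at 0.765 ± 0.159 FPKM, 2.96 ± 0.276 FPKM and 1.93 ± 0.456 FPKM. FPKM divides by all counts of a library without TMM scaling, so a rank compares genes within a group.

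Other genes of cholesterol and lipid metabolism were counted in 6 lists. In IMQ against control each count stands beside 24.1% of all genes up and 26.9% down, and lists of 7 or 8 genes with 1 to 3 calls in a direction are not far from those shares. Among 8 tested genes of sterol synthesis and its branches, 3 were downregulated in IMQ against control. The downregulated genes, with their log2 fold changes, were the mitochondrial thiolase Acat1 (-1.48), Pdss1 of the ubiquinone branch (-1.34) and the cytochrome b5 reductase Cyb5r3 (-1.20). In LYS against IMQ 0 genes of any of the 6 lists passed the edgeR thresholds.

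Among 14 fatty acid genes known as SREBP-1 targets, 3 were upregulated in IMQ against control and 8 downregulated, with a median log2 fold change of -0.94. Scd1, the stearoyl-CoA desaturase of sebocytes and fat cells, measured 9095, 14642 and 4560.3 CPM in the control libraries, 1387, 438 and 351 CPM in the IMQ libraries and 1314, 1212 and 1897 CPM in the LYS libraries. Its log2 fold change was -3.70 (SE 0.67, edgeR adjusted p = 0.00186), and Thrsp (-2.78) and the desaturase Fads2 (-2.67) fell as well. The upregulated genes, again with log2 fold changes, were Mid1ip1 (1.46), the malic enzyme gene Me1 (1.12) and Scd2 (0.91). Me1 measured 225, 302 and 285 CPM in the control libraries, 568, 593 and 613 CPM in the IMQ libraries and 404, 233 and 159 CPM in the LYS libraries, with IMQ above both other groups. Adipocyte genes, 8 of 8 of which fell in IMQ against control, summed to 7959 to 18858 CPM in the control, 861 to 3088 CPM in the IMQ and 2363 to 6640 CPM in the LYS libraries, and none was at 0. Of 10 sebaceous gland genes, 9 also fell and 1 rose in IMQ against control. The part of either cell type in the fatty acid values was not tested.

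Among 11 other genes of uptake, lysosome and esterification, 1 was upregulated in IMQ against control and 6 were downregulated. Stard3, a late endosomal cholesterol carrier, rose by 1.14 (SE 0.14, edgeR adjusted p = 3.14e-04) on the log2 scale, while the scavenger receptor Cd36 (-3.53), the lysosomal acid lipase gene Lipa (-1.21) and Lrpap1 (-1.20) fell. In LYS against IMQ 8 of the 11 were higher at an unadjusted p under 0.05, compared with 19.3% of all genes, and the median was 0.83. In the same comparison 8 of 8 macrophage and 4 of 8 adipocyte genes were also higher at an unadjusted p under 0.05. So were 5 of 6 endothelial, 4 of 6 fibroblast and 4 of 8 skeletal muscle genes, but 0 of 6 keratinocyte genes. The macrophage genes summed to 953 to 1351 CPM in the IMQ libraries and to 1869, 3382 and 4166 CPM in LYS 1, LYS 2 and LYS 3, with none at 0. The part of these cell types in the values was not tested. Lipa measured 60.1, 80.3 and 57.4 CPM in the control libraries, 38.1, 25.2 and 22.6 CPM in the IMQ libraries and 40.9, 71.3 and 101 CPM in the LYS libraries, and its IMQ libraries lay below all others.

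Of 7 tested genes of the liver X receptors and their targets, Nr1h2 (0.63) was upregulated in IMQ against control, and Abca5 (-1.82), Nr1h3 (-1.63) and the phospholipid transfer protein gene Pltp (-1.02) were downregulated. Nr1h3, which encodes liver X receptor alpha, measured 28.9, 40.9 and 22.8 CPM in the control libraries, 11.7, 10.4 and 7.91 CPM in the IMQ libraries and 15.7, 30.4 and 33.8 CPM in the LYS libraries. Pltp measured 208, 180.3 and 145 CPM in the control libraries, 112, 85.8 and 65.1 CPM in the IMQ libraries and 115, 328 and 441 CPM in the LYS libraries. In both genes LYS 2 and LYS 3 lay well above the IMQ range and LYS 1 only slightly, the order that Abca1 also showed. The summed macrophage, fibroblast, endothelial, adipocyte and skeletal muscle genes likewise rose from LYS 1 to LYS 3. The keratinocyte, sebaceous gland, hair follicle, neutrophil and cycling cell sums were highest in LYS 1. Over the 7 tested genes, the log2 fold change in LYS against IMQ was above 0 for 3 and below 0 for 4. Their median was -0.09, where the median of all genes was 0.04. The log2 fold changes in LYS against IMQ were 1.48 (SE 0.32, edgeR adjusted p = 0.0591) for Nr1h3 and 1.83 (SE 0.48, edgeR adjusted p = 0.0644) for Pltp.

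Of 7 tested genes of sterol sulfation and oxysterol metabolism, 4 were upregulated in IMQ against control and 1 downregulated (24.1% and 26.9% of all genes). Sult2b1, the cholesterol sulfotransferase of the epidermis, measured 25.4, 22.0 and 33.5 CPM in the control libraries, 178, 275 and 231 CPM in the IMQ libraries and 141, 117 and 82.9 CPM in the LYS libraries, with groups that did not overlap. It rose by 3.07 (SE 0.22, edgeR adjusted p = 2.86e-05) on the log2 scale in IMQ against control and by 2.08 (SE 0.25, edgeR adjusted p = 0.00143) in LYS against control. The oxysterol hydroxylase gene Cyp7b1 (2.76) and Papss2 (0.74), which makes the sulfate donor, rose in IMQ and Cyp39a1 fell (-0.59). In a list of 7 genes drawn up for SREBP processing and sensing, Erlin2 rose (0.63) and Ubxn8 fell (-0.60) in IMQ against control. The median of the 7 was -0.05. Ubxn8 is counted only as an entry of this list, and a part of it in SREBP processing or sensing was not established here.

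Marker genes of the cell types of skin were measured in the same libraries. The 6 keratinocyte genes summed to 4981 to 8401 CPM in the control libraries, 35641 to 48413 CPM in the IMQ libraries, and 28066, 15629 and 15664 CPM in LYS 1, LYS 2 and LYS 3, and 6 of 6 were upregulated in IMQ against control. The 10 sebaceous gland genes, from cells that also make sterols, summed to 1170 to 1246 CPM in the control libraries, 668 to 835 CPM in the IMQ libraries, and 1122, 404 and 392 CPM in the LYS libraries. Of these 10, 9 fell and 1, Acsbg1, rose in IMQ against control, with a median log2 fold change of -3.34, and none was at 0 in any group. Acsbg1 measured 63.0, 53.4 and 86.1 CPM in the control, 405, 465 and 556 CPM in the IMQ and 261, 129 and 114 CPM in the LYS libraries. It made up most of the IMQ sums, and in LYS 1 Krt79 added 553 CPM. The 12 hair follicle genes summed to 2176 to 4413 CPM in the control libraries and to 15.6 to 57.6 CPM in the IMQ and LYS libraries, with Krt72, Krt31, Krt33a and Krt35 at 0 in the IMQ group and Krt72 and Krt31 at 0 in the LYS group. Of these 12, 11 fell in IMQ against control, and Foxn1, at 13.1, 7.02 and 18.7 CPM in the control libraries, 32.4, 51.8 and 34.0 CPM in the IMQ libraries and 34.0, 24.9 and 13.6 CPM in the LYS libraries, rose and made up most of the IMQ and LYS sums. The 6 neutrophil genes summed to 34.4 to 83.7 CPM in the control, 21100 to 28663 CPM in the IMQ and 5823 to 17306 CPM in the LYS libraries. Most of these sums in IMQ and LYS came from S100a8 and S100a9, which keratinocytes of inflamed skin also express. Ly6g was at most 1.19 CPM in any library. Csf3r measured 20.9, 16.4 and 14.5 CPM in the control libraries, 76.2, 108 and 90.8 CPM in the IMQ libraries and 219, 182 and 98.8 CPM in the LYS libraries, with a log2 fold change of 0.92 (SE 0.28, edgeR adjusted p = 0.0769) in LYS against IMQ, where the fold changes of the other 4 tested neutrophil genes were below 0. The part of these cell types in the values of the enzymes was not tested.

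**Figure D4:**
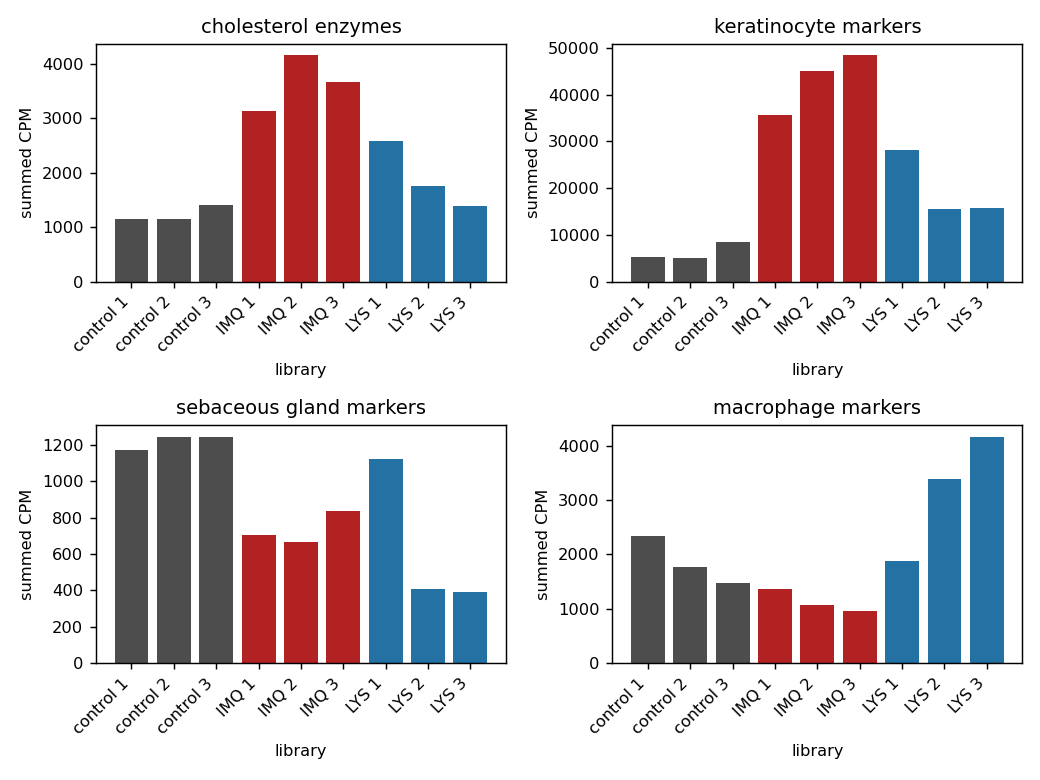
Summed CPM (vertical axes, from 0) in each of the 9 libraries (horizontal axes) of the 18 cholesterol enzymes and of the keratinocyte, sebaceous gland and macrophage marker genes, with bars for libraries coloured by group. The enzymes and the keratinocyte genes are highest in the 3 IMQ libraries and next in LYS 1, the sebaceous gland genes are highest in the control libraries and LYS 1, and the macrophage genes are highest in LYS 2 and LYS 3. Acsbg1 makes up most of the sebaceous gland sums in the IMQ libraries.

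The 6 fibroblast genes (3277 to 10536 CPM in IMQ, 21496 to 27354 CPM in control), the 8 skeletal muscle genes (1621 to 4044 CPM, 9703 to 11244 CPM), the 6 endothelial genes (149 to 298 CPM, 372 to 532 CPM) and the 6 cycling cell genes (259 to 434 CPM, 600.0 to 825 CPM) were all lower in IMQ than in control, and every gene of these 4 lists passed the thresholds. In the LYS libraries they summed to 9016 to 17415 CPM, 4180.4 to 8030.1 CPM, 293 to 572 CPM and 264 to 489.6 CPM in the same order, and none of their genes was at 0.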

How the data were processed

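Back skin RNA of 3 groups (3 libraries each) was analysed. The authors extracted RNA with TRIzol, made libraries from 1.5 µg with the NEBNext Ultra RNA kit, and deposited 1 table of raw counts and FPKM per gene. The submitters' processing notes name GRCm38, HISAT2 and HTSeq 0.13.5. The deposited FPKM used the GENCODE M21 exon length, within 1 base, for 98% of 13547 genes checked, and each count table column had a sample.

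Counts were tested with edgeR 4.0.16 in R 4.3.3 (TMM, filterByExpr, quasi-likelihood test, Benjamini-Hochberg adjustment), 1 fit per pair of groups, with thresholds of 0.05 on the adjusted p and 0.58 on the size of the log2 fold change. CPM used TMM factors over all 9 libraries. DESeq2 1.42.0, other scalings, no filter, 1 fit to all libraries, a replicate block and leaving out each library were alternatives. Scripts were tested on simulated data. Scaling by library totals changed the calls over all genes from 3854 up and 4291 down to 2390 and 6854 in IMQ against control, and from 2412 and 2064 to 1917 and 2706 in LYS against control. Transcript sequences were compared in stretches of 50 bases. Promoter windows came from RefSeq.

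Members and lists were chosen with earlier results of these data known. All 28 genes are named. From each other list, up to 3 genes a direction are named, those that changed most in IMQ against control at a mean of at least 1 CPM. Certain genes of the pathway are not reported here.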

Additional observations from a re-analysis of the deposited data

How the results depend on the processing

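In IMQ against control, the 24 calls kept their direction in all 12 alternative fits. Scaling by library totals alone lowered the median log2 fold change of the enzymes to 1.07 and that of the other 10 genes to 0.64, ended the calls of Acat2, Nsdhl and Mylip, and added Abca1 and Insig1 as lower. Leaving out each library in turn gave 0.99 to 1.15 for the other 10 genes.

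The absence of calls in LYS against IMQ depended on the fit. DESeq2 called 20 of the 28 genes, edgeR without the filter on low counts 15, and 1 fit to all 9 libraries 20. Over all genes these fits called 1951 higher and 1394 lower of 14693 tested, 1453 and 966 of 27402, and 1627 and 1413 of 16392. Leaving out each library gave 0 to 22 calls, with 22 without LYS 1 and 5 without IMQ 1. Over all genes, 2370 were called higher and 1892 lower of 15895 without LYS 1, and 1077 and 796 of 15840 without IMQ 1. Leaving out any other library gave 0 calls over all genes. The median of the other 10 genes was -0.12 under library totals alone.

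In LYS against control, leaving out each library gave 7 to 17 calls. There were 7 without Control 1 and 17 without LYS 3 (1502 up and 1077 down, and 2739 up and 2333 down, over all genes). With all libraries, a cutoff of 1 on the absolute log2 fold change left 5 calls. Over all 16003 genes tested, that cutoff left 1605 up and 1305 down. The median of the other 10 genes was 0.74 under library totals alone. Of the 336 gene-by-fit values of each comparison, 330, 254 and 307 kept their side of the thresholds in IMQ against control, LYS against IMQ and LYS against control, and the direction of a call was never reversed. The cause of these changes was not tested.

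Replicate numbers were not treated as pairs, since the labels do not say that a number marks a shared mouse, litter or day. The deviations of libraries with the same number correlated at -0.46 to 0.20. With 3 libraries per group these correlations cannot decide whether libraries were paired. With the replicate block, 24, 0 and 9 of the 28 genes were called in IMQ against control, LYS against IMQ and LYS against control. Over all genes that fit called 3799 up and 4245 down of 15976 in IMQ against control. It called 0 of 15460 in LYS against IMQ, and 1721 up and 1405 down of 16003 in LYS against control. Reads shared between genes limit the values of Acat2, Idi1, Fdps and Fdft1.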

Other observations

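The other lipid genes were also set against the control group in LYS skin. Of 14 fatty acid genes, 1 was upregulated and 9 were downregulated in LYS against control, with a median log2 fold change of -0.80, where 15.1% of all genes were upregulated and 12.9% downregulated. Of 8 adipocyte genes, 7 were downregulated in the same comparison, and of 10 sebaceous gland genes 5 were downregulated and 1 upregulated. The part of either cell type in the fatty acid values was not tested. Scd1 had a log2 fold change of -2.67 (SE 0.45, edgeR adjusted p = 0.00508), Fads2 one of -2.11 (SE 0.23, edgeR adjusted p = 0.00109), and the fatty acid and lipoprotein receptor gene Cd36 one of -2.09 (SE 0.43, edgeR adjusted p = 0.0102). Cyp7b1, which hydroxylates oxysterols, measured 2.66, 3.83 and 2.68 CPM in the control libraries, 18.0, 25.1 and 19.6 CPM in the IMQ libraries and 35.4, 37.3 and 14.0 CPM in the LYS libraries, and every IMQ and LYS library lay above every control library. Its log2 fold change was 3.24 (SE 0.40, edgeR adjusted p = 0.00173) in LYS against control and 0.53 (SE 0.35, edgeR adjusted p = 0.310) in LYS against IMQ. Acat1, the mitochondrial counterpart of Acat2, measured 216, 225 and 171 CPM in the control libraries, 80.5, 65.2 and 74.1 CPM in the IMQ libraries and 78.2, 77.1 and 82.1 CPM in the LYS libraries, so that its IMQ and LYS libraries lay below all control libraries while Acat2 was higher in IMQ.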
